A study of Mus musculus with 20 samples.

Results

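Fos, Fosb, Fosl2, Jun, Junb, Jund, Atf3, Egr1, Egr2, and Ier2 are the genes of the AP-1 and immediate early factors, and their chromatin was read in bone marrow progenitors that lack Ep300, Tet2, or both. AP-1 is a dimer of leucine zipper proteins of the Fos and Jun families. It binds the TGANTCA element and carries growth factor, cytokine, and stress signals to the genome. Immediate early genes need no new protein synthesis for their induction, because the factors that switch them on already sit at their promoters. In bone marrow, AP-1 and Egr factors are known for their roles in myeloid differentiation and in the response of stem and progenitor cells to cytokines. Ep300 is an acetyltransferase that places H3K27ac on active promoters and enhancers, and Tet2 oxidizes methylcytosine in DNA.

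ChIP-Seq of H3K27ac, a mark of active promoters and enhancers, H3K4me3, a mark of promoters, and H3K4me1, a mark of enhancers and promoter flanks, had been carried out in lineage-negative (Lin-) bone marrow cells of mice of 4 genotypes. WT mice were Ep300 fl/fl, Ep300Δ/Δ mice were Mx1-Cre;Ep300 fl/fl, Tet2-/- mice were Ep300 fl/fl;Tet2-/-, and Ep300Δ/ΔTet2-/- mice were Mx1-Cre;Ep300 fl/fl;Tet2-/-. All 4 genotypes received poly(I:C) as young adults. This agent induces Mx1-Cre and an interferon response, so the controls carried the floxed allele and the treatment too, but not the Cre. Mx1-Cre is also active outside the blood, and the number of animals behind each chromatin preparation is not given in the sources used here.

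Each genotype and mark had 1 library and 1 peak list, so no difference between genotypes below has a replicate check, and no test between genotypes was made. The 95% intervals (exact Clopper-Pearson) cover counting error over regions only. Regions of 1 gene are neighbors and not independent. The members were found as the peaks that overlapped a gene body or the 20 kb on either side of it, for each of the 10 genes apart. The 10 windows held 783 of the 591292 peaks in the 12 lists. A fold enrichment is that of a peak over the total H3 library of the same genotype. Because each list was called alone, a fold, or a mean of folds, describes its own list and is not an amount that can be compared between genotypes. Many folds are given with their percentile, the share of peaks of the same list at or below them. The lists differ in length, so an unchanged peak can have a lower percentile in a list with fewer weak peaks. Percentiles too describe a place in a list and not an amount. In bulk cells, fewer cells with a mark and less of it in each cell cannot be told apart.

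The lists ranged from 18327 H3K27ac peaks in Ep300Δ/ΔTet2-/- cells to 107392 H3K4me1 peaks in WT cells, and read depth is unknown from peak lists. From 0.137% to 7.17% of the peaks of a list had a q value of 0.05 or more, the latter in the Ep300Δ/Δ H3K27ac list. The 7 stem and progenitor markers Kit, Cd34, Gata2, Myb, Runx1, Meis1, and Flt3 had a promoter H3K4me3 peak in all 4 genotypes, and 7, 7, 6, and 6 of them had a promoter H3K27ac peak in WT, Ep300Δ/Δ, Tet2-/-, and Ep300Δ/ΔTet2-/- cells. Markers of mature cells differed between the lists. Of the 3 genes of mature neutrophils and monocytes (Ly6g, Itgam, and Mmp9), 2 had a promoter H3K27ac peak in WT cells, 1 in Ep300Δ/Δ cells, and 0 in both Tet2-/- and Ep300Δ/ΔTet2-/- cells, with Ly6g without one in all 4. Of the 3 T cell genes the number was 0 in each genotype, and of the 3 erythroid genes 2, 3, 1, and 2. None of Alb, Myod1, and Neurod1, genes of other tissues, had an H3K27ac promoter peak. Promoter H3K4me3 peaks were not limited to the stem and progenitor markers. Neurod1 and the 3 erythroid genes had one in all 4 genotypes. Of the T cell genes 0, 1, 1, and 1 had one, and of the neutrophil and monocyte genes 2, 1, 2, and 1, in the same order of genotypes. The part of cell composition in the results below was not tested. The deletions themselves cannot be checked in peak lists.

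Most of these genes carried all 3 marks at their promoters in every genotype. H3K4me3 and H3K4me1 peaks lay within 3 kb of a start of the gene at 10 of 10 genes in all 4 lists, compared with 60.1% and 53.4% of the 21938 coding genes. H3K27ac did so at 8 of 10 genes, compared with 40.0%, and the exceptions were Atf3 and Egr2. The acetylated stretches were long. In WT cells, H3K27ac covered 6122 bp around the starts of Junb and 5412 bp around that of Ier2, more than at 99.8% and 99.7% of coding genes, and 373 bp around the starts of Egr2, more than at 56.5%. The median over coding genes was 0 bp. Genes with several starts have a wider stretch to cover, which enters these ranks.

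**Figure D1:**
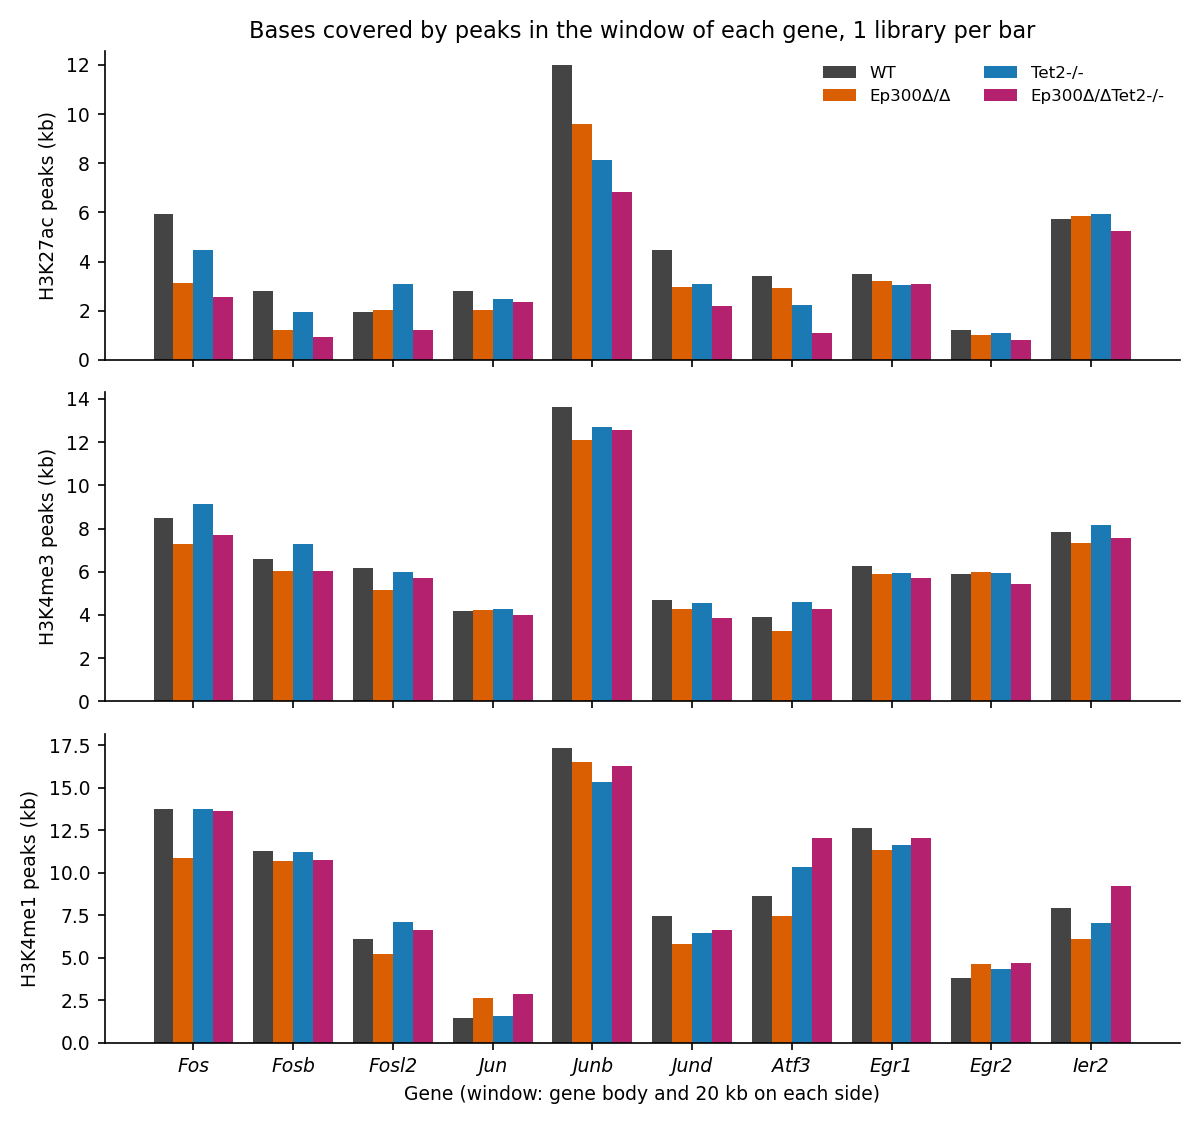
Kilobases covered by H3K27ac, H3K4me3, and H3K4me1 peaks (y axes) in the window of each gene (x axis), with 1 bar for the single library of each genotype. The window of Junb had the most acetylated bases in all 4 genotypes (6820 to 11980 bp), summed over separate peaks and partly at promoters of neighboring genes. Ep300Δ/ΔTet2-/- cells had the fewest acetylated bases at 8 of 10 genes.

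The first question was what the loss of Ep300 did to acetylation at these genes when Tet2 was intact. H3K27ac covered 43.9 kb of the 10 windows in WT cells and 34.0 kb in Ep300Δ/Δ cells, which is 77.5% of the WT length, while the whole list went from 18.7 to 11.5 Mb, 61.3%. The mean fold of the peaks in the windows was 12.1 in WT and 8.26 in Ep300Δ/Δ cells, and over the whole lists 9.87 and 8.24. Within 3 kb of a start, the covered length was lower in Ep300Δ/Δ cells at 8 of the 9 genes with a WT peak, against a background of 86.5% of coding genes, so the share at these genes was near that of all genes.

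By regions, 11 of the 49 H3K27ac regions of the windows in WT cells had no peak in Ep300Δ/Δ cells (22.4%, 95% interval 11.8 to 36.6), compared with 39.7% of all regions. Among distal regions, more than 3 kb from any start, 5 of 15 were lost, compared with 62.5%. Of 40 regions in Ep300Δ/Δ cells 2 were gained (interval 0.611 to 16.9), compared with 12.8% of all, a share inside the interval. The windows were rich in strong peaks, and strong peaks were less often lost in the whole list. The part of peak strength in the share lost was not tested. Of the 33 WT regions with a fold in the upper part of the list (over the 50th percentile) 2 were lost (6.06%, against 12.9% of all such regions), and of the 16 in the lower part 9 were lost (56.2%, against 66.8%). The interval of the share lost in the windows held the share of all regions in 3 of 7 alternative settings: only peaks of a −log10 q of at least 5 (20.001 to 48.95, against 45.8%), lists of equal size (6.49 to 29.5, against 26.7%), and only regions nearest to a start of these genes (10.3 to 43.5, against 39.7%). When peaks within 500 bp were joined first, so that pieces of 1 domain counted once, 3 of 27 regions were lost (11.1%, against 35.7% of all). The lost regions of the windows had a median percentile of 28.7 and the kept ones of 77.0, compared with 26.9 and 69.0 over all regions.

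The second question was the same with Tet2 absent. H3K27ac covered 35.5 kb in Tet2-/- cells and 26.3 kb in Ep300Δ/ΔTet2-/- cells, 73.9% of the first length, while the whole list went from 15.0 to 11.9 Mb, 79.4%. The mean fold in the windows was 9.79 and 9.77, and over the whole lists 9.41 and 9.82. The covered length around the starts was lower in Ep300Δ/ΔTet2-/- cells at 9 of 9 genes with a peak, against a background of 65.4% of coding genes. Of 44 regions 15 were lost (34.1%, interval 20.49 to 49.9), compared with 37.8% of all, and of 13 distal regions 8 were lost, compared with 61.9%. Of 32 regions 3 were gained, compared with 15.0%. In the upper part of the list 3 of 23 regions were lost and in the lower part 12 of 21 (13.04% and 57.1%), against 11.96% and 64.3% of all such regions. With Tet2 absent, the share of regions lost at these genes was thus near that of the whole list.

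The third comparison was of Tet2-/- with WT cells. H3K27ac covered 35.5 kb against 43.9 kb, 81.0% of the WT length, and the whole list 79.9%. The mean fold was 12.1 in WT and 9.79 in Tet2-/- cells in the windows, and 9.87 and 9.41 over the lists. The length around the starts was lower at 8 of 9 genes, against a background of 63.5%. Of 47 regions 9 were lost (19.1%, interval 9.15 to 33.3), compared with 35.6%, and of 42 regions 4 were gained, compared with 20.3%. The 4 gained regions all lay at Fosl2. With peaks within 500 bp joined, 2 of 27 regions were lost (7.41%, against 30.1%). The interval of the share lost in the windows held the share of all regions in 4 of 7 alternative settings: lists of equal size (5.17 to 27.4, against 26.8%), 50 kb on each side (15.8 to 36.3, against 35.6%), an overlap of at least 50% of the region (15.99 to 43.5, against 40.4%), and only regions nearest to a start of these genes (7.71 to 38.6, against 35.6%).

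**Figure D2:**
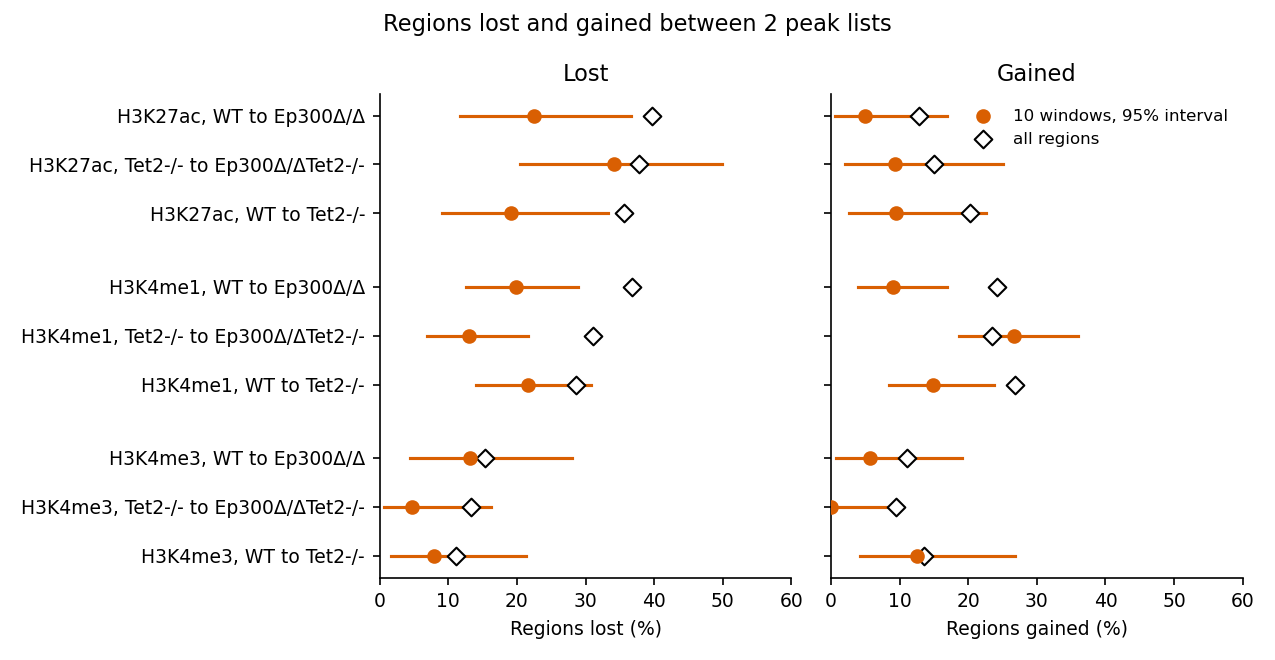
Share of regions lost and gained (x axes, percent) in 3 comparisons of 2 lists each, for 3 marks. Points with bars stand for the 10 windows with the 95% interval for counting error, and open diamonds for all regions of the same lists. The share of H3K27ac regions lost was 22.4% in the windows and 39.7% over all regions from WT to Ep300Δ/Δ, and 34.1% and 37.8% from Tet2-/- to Ep300Δ/ΔTet2-/-.

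H3K4me1, in contrast to H3K27ac, was not shorter in the windows of the doubly deficient cells. It covered 90.4 kb in WT, 81.2 kb in Ep300Δ/Δ, 88.8 kb in Tet2-/-, and 94.8 kb in Ep300Δ/ΔTet2-/- cells. From Tet2-/- to Ep300Δ/ΔTet2-/- cells that was 107% of the first length in the windows and 83.3% in the whole list (mean fold 5.24 and 4.95 in the windows, 5.58 and 5.13 over the lists). From WT to Ep300Δ/Δ cells it was 89.8% and 84.9% (mean fold 5.26 and 5.33, and 4.96 and 4.92). Around the starts, H3K4me1 covered more in Ep300Δ/ΔTet2-/- than in Tet2-/- cells at 8 of 10 genes, against a background of 38.0% of coding genes, and more in Ep300Δ/Δ than in WT cells at 5 of 10, against 41.5%. In the same 2 comparisons 12 of 92 regions (compared with 31.1%) and 20 of 101 regions (compared with 36.7%) were lost, and 29 of 109 (compared with 23.4%) and 8 of 89 (compared with 24.1%) were gained. With only peaks of a −log10 q of at least 5, the losses came to 29.3% and 32.4% (44.1% and 51.0% of all regions). From WT to Tet2-/- cells 22 of 102 were lost, compared with 28.6%, and 14 of 94 were gained, compared with 26.8%.

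H3K4me3 covered 67.7 kb of the windows in WT, 61.4 kb in Ep300Δ/Δ, 68.5 kb in Tet2-/-, and 62.9 kb in Ep300Δ/ΔTet2-/- cells. The mean fold in the windows was 24.2, 20.8, 16.4, and 17.98 in that order, and over the whole lists 26.2, 22.8, 19.6, and 17.6. From WT to Ep300Δ/Δ cells 5 of 38 regions were lost, compared with 15.4%, and 2 of 35 were gained, compared with 11.1%. From Tet2-/- to Ep300Δ/ΔTet2-/- cells 2 of 42 were lost, compared with 13.3%, and 0 of 40 were gained (interval 0 to 8.81), compared with 9.45%. From WT to Tet2-/- cells 3 of 38 were lost, compared with 11.1%, and 5 of 40 were gained, compared with 13.6%. All H3K4me3 regions lost or gained in the windows lay at or below percentile 25.6 of their list. Over the 4 genotypes together, 11 of 12 distal H3K4me3 regions were found in all 4 lists, compared with 41.3% of all distal ones.

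**Figure D3:**
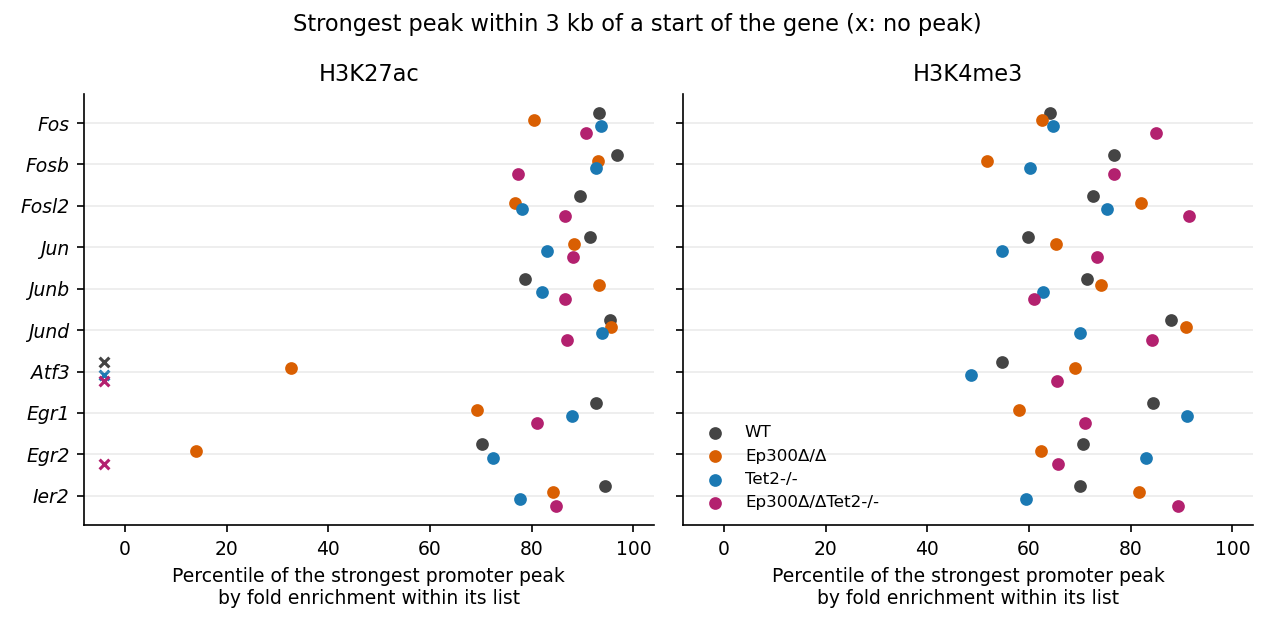
Percentile by fold enrichment, within its own list, of the strongest H3K27ac and H3K4me3 peak within 3 kb of a start (x axes) for each gene (y axis), with 1 point for the library of each genotype and a cross where the list has no such peak. Atf3 had an H3K27ac promoter peak in Ep300Δ/Δ cells at percentile 32.8 and in no other genotype, and Egr2 had none in Ep300Δ/ΔTet2-/- cells.

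Fos, the founding member of the Fos family and a partner of the Jun proteins, lies at chr12:85473890-85477273 on the plus strand (mm10), with no other annotated gene in its window. Its H3K27ac covered 5957 bp in WT, 3130 bp in Ep300Δ/Δ, 4489 bp in Tet2-/-, and 2578 bp in Ep300Δ/ΔTet2-/- cells, so both Ep300-deleted lists were below both others. The strongest promoter peak had a fold of 24.1 in WT (percentile 93.2), 11.4 in Ep300Δ/Δ (percentile 80.5), 22.9 in Tet2-/- (percentile 93.7), and 19.98 in Ep300Δ/ΔTet2-/- cells (percentile 90.8). Between 4246 and 5249 bp upstream, a pair of acetylated regions at chr12:85467948-85468641 and chr12:85468858-85469644 was found in WT (percentiles 68.0 and 66.8), Ep300Δ/Δ (percentiles 60.1 and 35.6), and Tet2-/- cells (percentiles 60.3 and 40.2) and was absent from Ep300Δ/ΔTet2-/- cells. H3K4me1 was present over this pair in all 4 lists, with a fold of 11.4 (percentile 98.8) in Ep300Δ/ΔTet2-/- cells. A second upstream pair, 17803 and 18413 bp from the start, was found in all 4 lists.

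Downstream of Fos, 10403 bp from the nearest start, chr12:85485314-85486060 was acetylated in all 4 genotypes, with folds of 16.7 in WT (percentile 86.3), 5.16 in Ep300Δ/Δ (percentile 41.0), 9.14 in Tet2-/- (percentile 67.0), and 9.71 in Ep300Δ/ΔTet2-/- cells (percentile 67.5). It also carried H3K4me3. That peak reached a fold of 49.3 in WT, where the promoter of Fos reached 31.1, 33.5 against 23.7 in Tet2-/-, and 45.0 against 33.6 in Ep300Δ/ΔTet2-/- cells, while in Ep300Δ/Δ cells it reached 24.1 against 25.9. No start of another gene was nearer than that of Fos. Its summit is shown because it had the highest WT fold among the distal regions of these genes that were kept in all 4 lists.
Fos downstream, chr12:85485701-85486000, plus strand: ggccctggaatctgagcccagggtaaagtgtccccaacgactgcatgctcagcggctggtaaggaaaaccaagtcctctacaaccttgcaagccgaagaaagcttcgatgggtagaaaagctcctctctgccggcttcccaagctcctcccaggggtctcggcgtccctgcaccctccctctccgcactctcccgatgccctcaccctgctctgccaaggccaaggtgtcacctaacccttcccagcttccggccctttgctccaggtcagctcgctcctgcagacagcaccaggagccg
None of the 4 motifs searched here occurred in these 300 bases. The motifs were the CArG box that binds serum response factor, the AP-1 element TGANTCA, the cyclic AMP response element TGACGTCA, and the Egr element GCGNGGGCG, each on both strands.

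Fosb, a relative of Fos that is induced with it, lies at chr7:19302696-19310051 on the minus strand and shares its window with Rtn2. Its H3K27ac covered 2818 bp in WT, 1235 bp in Ep300Δ/Δ, 1937 bp in Tet2-/-, and 918 bp in Ep300Δ/ΔTet2-/- cells, again lower in both Ep300-deleted lists than in both others. The strongest promoter peak had folds of 32.6 (percentile 96.7), 19.2 (percentile 93.1), 21.5 (percentile 92.7), and 12.2 (percentile 77.3) in the same order. A region inside the gene, 429 bp from the nearest start, chr7:19308763-19309171, was present in WT (5.10-fold) and Tet2-/- cells (4.03-fold) and absent from both Ep300-deleted lists. An upstream region 9398 bp away was present in all but Ep300Δ/ΔTet2-/- cells.

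Fosl2, which encodes Fra-2 of the same family, lies at chr5:32135801-32157842 on the plus strand. Its H3K27ac covered 1936 bp in WT, 2042 bp in Ep300Δ/Δ, 3091 bp in Tet2-/-, and 1212 bp in Ep300Δ/ΔTet2-/- cells, so Tet2-/- cells were highest. The window had 3, 2, 7, and 2 peaks in that order. The regions at chr5:32133295-32133781, chr5:32138510-32138872, and chr5:32139640-32139859 occurred in Tet2-/- cells only among the 4 lists, at or below percentile 26.2, and the first lay 124 bp from a start of Gm10463. A distal region 13295 bp upstream, chr5:32122235-32122506, was present in WT (7.40-fold) and Tet2-/- cells (6.41-fold) and absent from both Ep300-deleted lists, with H3K4me1 over it in all 4. Its nearest start was that of Gm10463, 10662 bp away.

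**Figure D4:**
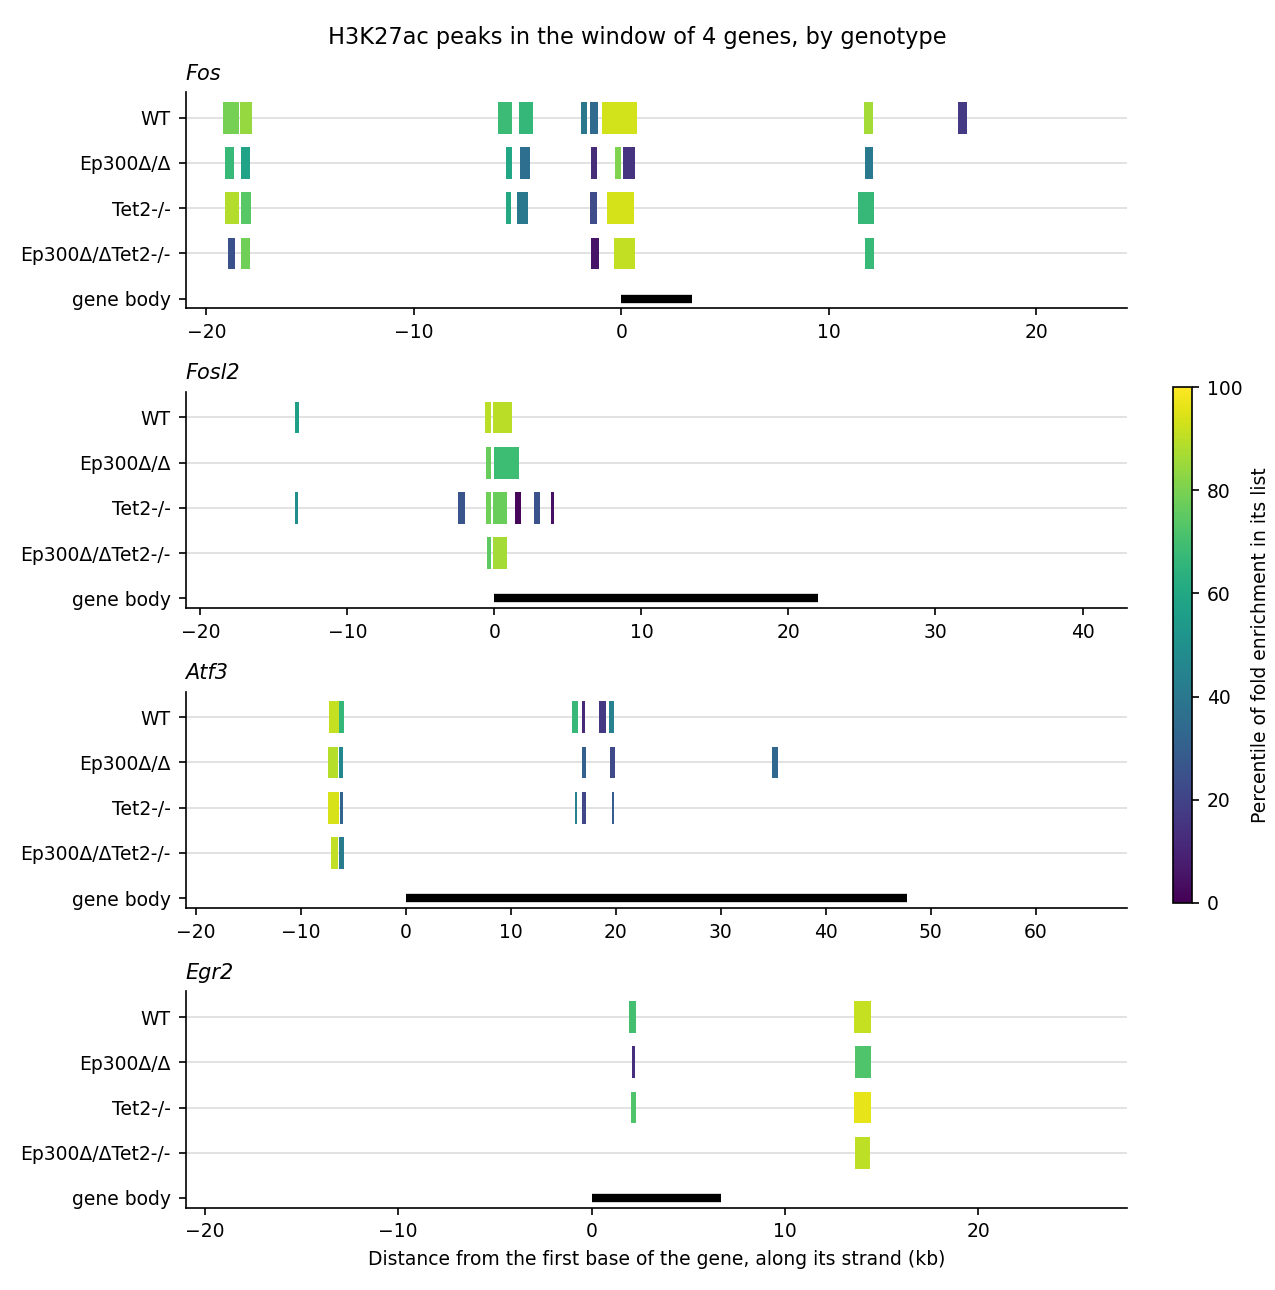
H3K27ac peaks by their distance in kb from the first base of the gene along its strand (x axis) in the 4 genotypes (y axis) for Fos, Fosl2, Atf3, and Egr2, colored by the percentile of their fold in their own list, with the gene body as a black bar. The upstream pair of Fos and the intronic group of Atf3 have no peak in Ep300Δ/ΔTet2-/- cells, and Fosl2 has 7 peaks in Tet2-/- cells against 2 or 3 in the others.

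Jun, a partner of the Fos proteins, lies at chr4:95049034-95052222 on the minus strand beside the antisense gene Junos. A single H3K4me3 peak spanned both starts in each list, over 4193 bp in WT, 4217 bp in Ep300Δ/Δ, 4293 bp in Tet2-/-, and 3985 bp in Ep300Δ/ΔTet2-/- cells. H3K27ac covered 2800 bp in WT, 2033 bp in Ep300Δ/Δ, 2467 bp in Tet2-/-, and 2344 bp in Ep300Δ/ΔTet2-/- cells. The promoter peak stayed between percentiles 83.0 and 91.6. Apart from a weak WT region (3.27-fold, percentile 4.54), all acetylation of Jun lay in that one promoter region, and no distal H3K27ac region was found in its window.

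Junb, an AP-1 subunit known as a brake on myeloid proliferation, lies at chr8:84974484-84978718 on the minus strand among Rnaseh2a, Prdx2, Gm49661, and Hook2. H3K27ac covered 11980 bp of the window in WT, 9589 bp in Ep300Δ/Δ, 8138 bp in Tet2-/-, and 6820 bp in Ep300Δ/ΔTet2-/- cells. Part of this lay at the promoters of its neighbors. Within 3 kb of the starts of Junb itself the lengths were 6122, 4976, 4224, and 3887 bp. One WT peak over the promoter was split into 5, 3, and 4 peaks in the other lists, so peak counts (9, 11, 8, and 8) did not follow the covered length. Its strongest promoter peak was at percentile 78.6 in WT, 93.3 in Ep300Δ/Δ, 82.0 in Tet2-/-, and 86.6 in Ep300Δ/ΔTet2-/- cells, lowest in the list with the unsplit peak.

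Between Junb and Hook2, chr8:84984826-84986573 was distal and acetylated in all 4 lists, at percentiles 76.3 in WT, 84.2 in Ep300Δ/Δ, 46.4 in Tet2-/-, and 56.4 in Ep300Δ/ΔTet2-/- cells. The nearest start was that of Hook2, 4030 bp away, and that of Junb was 6108 bp away. The summit is shown because it held 3 copies of the AP-1 element, in capitals, and was chosen after that was seen.
Junb upstream, chr8:84985512-84985811, plus strand: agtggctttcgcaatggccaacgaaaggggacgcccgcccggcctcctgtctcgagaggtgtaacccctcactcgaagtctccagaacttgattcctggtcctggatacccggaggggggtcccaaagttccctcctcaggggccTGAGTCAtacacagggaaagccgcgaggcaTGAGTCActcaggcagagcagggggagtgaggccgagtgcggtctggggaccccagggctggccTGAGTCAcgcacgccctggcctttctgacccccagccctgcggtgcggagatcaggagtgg
Over the 17 distal acetylated regions for which sequence was read, 4 held the AP-1 element in the 300 bases centered on the summit, at Fosb (1 region), Junb (2), and Atf3 (1). Of the 10830 distal H3K27ac peaks of the whole WT list, 9.40% held it in a stretch of the same length. The 17 regions were pooled over all 4 lists, so the sets are not fully alike. The CArG box, TGACGTCA, and GCGNGGGCG occurred in 0 of the 17, and in 1.302%, 0.259%, and 0.286% of the WT list. A match describes the letters and not the binding of a factor.

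Jund, the most widely and constantly expressed Jun family member, lies at chr8:70698949-70700616 on the plus strand. H3K27ac covered 4467 bp in WT, 2983 bp in Ep300Δ/Δ, 3104 bp in Tet2-/-, and 2187 bp in Ep300Δ/ΔTet2-/- cells. The region just upstream of the annotated start, chr8:70697372-70698804, stayed high in each list (percentiles 95.3, 95.6, 93.9, and 86.9). The region inside the gene at chr8:70699162-70699562 did not, with percentile 94.3 in WT, percentile 83.9 in Ep300Δ/Δ, percentile 70.9 in Tet2-/-, and percentile 25.3 in Ep300Δ/ΔTet2-/- cells. Its folds were 26.1, 12.7, 10.06, and 4.91 in the same order. It lay nearest to a start of Gm11175, an antisense gene.

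Atf3, a stress-induced factor that dimerizes with Jun proteins, lies at chr1:191170296-191218039 on the minus strand. Within 3 kb of a start, H3K4me3 was present in all 4 lists (percentiles 54.6, 69.0, 48.6, and 65.5), and H3K27ac only in Ep300Δ/Δ cells, as a peak of 4.62-fold at percentile 32.8. Of the 9862 coding genes with a promoter peak in Ep300Δ/Δ cells, 3.08% had none in WT cells. The strongest H3K27ac of the window lay 6413 bp upstream of the gene at the start of the noncoding D730003I15Rik, chr1:191224452-191225492, and was kept in all 4 lists (percentiles 91.3, 88.9, 94.0, and 90.5).

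Inside the gene, 4 acetylated regions lay between chr1:191198149 and 191202201. WT cells had 4 of the 4 regions, Ep300Δ/Δ cells 2, Tet2-/- cells 3, and Ep300Δ/ΔTet2-/- cells 0. H3K4me1 was present over all 4 in Ep300Δ/ΔTet2-/- cells (folds of 3.88 to 8.75). The small RNA gene Gm24748 lay nearest, 1243 to 4777 bp away. The last of the 4, chr1:191201683-191202201, was absent from both Ep300-deleted lists. Its H3K27ac reached a fold of 9.32 in WT (percentile 67.1) and 6.01 in Tet2-/- cells (percentile 44.2), and it had the highest WT fold among the distal regions lost in both Ep300 comparisons, for which it is shown. The AP-1 element it holds is in capitals.
Atf3 intron, chr1:191201639-191201938, plus strand: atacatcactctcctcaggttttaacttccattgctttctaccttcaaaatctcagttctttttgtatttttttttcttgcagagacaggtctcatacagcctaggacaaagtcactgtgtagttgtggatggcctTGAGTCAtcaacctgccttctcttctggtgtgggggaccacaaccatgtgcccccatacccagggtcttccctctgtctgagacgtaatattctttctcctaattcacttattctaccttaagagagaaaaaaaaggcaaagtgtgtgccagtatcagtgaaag
H3K4me1 over this region was listed in WT, Tet2-/-, and Ep300Δ/ΔTet2-/- cells and not in Ep300Δ/Δ cells. In the whole window, H3K27ac covered 3408, 2927, 2252, and 1084 bp in WT, Ep300Δ/Δ, Tet2-/-, and Ep300Δ/ΔTet2-/- cells, and H3K4me1 8658, 7438, 10359, and 12044 bp, so that Ep300Δ/ΔTet2-/- cells were lowest for the first mark and highest for the second.

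Ier2, a short immediate early gene, lies at chr8:84661331-84662852 on the minus strand. Relative to its length, the H3K27ac it carried differed least between the lists among the 10 windows. H3K27ac covered 5751 bp in WT, 5849 bp in Ep300Δ/Δ, 5925 bp in Tet2-/-, and 5258 bp in Ep300Δ/ΔTet2-/- cells. All 3 of its acetylated regions were in all 4 lists, the promoter one at folds of 26.3, 12.8, 12.02, and 15.4 (percentiles 94.4, 84.1, 77.8, and 84.7). A single H3K4me3 peak over its start reached the start of Gm26664 in WT (6491 bp) and Tet2-/- cells (6522 bp), and was divided into 2 peaks in both Ep300-deleted lists.

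Egr2, a zinc finger factor with roles in myeloid and lymphoid cells, lies at chr10:67535475-67542188 on the plus strand. Its single promoter H3K27ac peak had a fold of 9.98 in WT (percentile 70.2), 3.57 in Ep300Δ/Δ (percentile 14.0), and 10.5 in Tet2-/- cells (percentile 72.5), and was absent from Ep300Δ/ΔTet2-/- cells. Egr2 was the 1 of 9 genes that lost its promoter peak from Tet2-/- to Ep300Δ/ΔTet2-/- cells, against a background of 10.2% of coding genes with such a peak in Tet2-/- cells. H3K4me3 stayed in all 4 lists (percentiles 70.6, 62.4, 83.0, and 65.6), and H3K4me1 around the starts covered 2355, 2826, 2948, and 2897 bp in WT, Ep300Δ/Δ, Tet2-/-, and Ep300Δ/ΔTet2-/- cells. The other acetylated region of the window belonged to the start of Ado, 111 bp away, and was kept in all 4 lists. The promoters of 2 starts are shown on the gene strand, from 250 bases before to 50 after the start. They are shown because the region lost from Tet2-/- to Ep300Δ/ΔTet2-/- cells, chr10:67537537-67537773, spans the end of the first and the beginning of the second. Capitals mark CArG boxes.
Egr2 promoter, chr10:67537316-67537615: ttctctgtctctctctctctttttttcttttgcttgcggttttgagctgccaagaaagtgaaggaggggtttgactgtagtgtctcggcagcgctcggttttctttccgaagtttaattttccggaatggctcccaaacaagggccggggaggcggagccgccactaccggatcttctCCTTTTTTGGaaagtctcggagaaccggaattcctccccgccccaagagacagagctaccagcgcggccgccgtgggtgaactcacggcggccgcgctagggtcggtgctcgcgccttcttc
Egr2 promoter, chr10:67537619-67537918: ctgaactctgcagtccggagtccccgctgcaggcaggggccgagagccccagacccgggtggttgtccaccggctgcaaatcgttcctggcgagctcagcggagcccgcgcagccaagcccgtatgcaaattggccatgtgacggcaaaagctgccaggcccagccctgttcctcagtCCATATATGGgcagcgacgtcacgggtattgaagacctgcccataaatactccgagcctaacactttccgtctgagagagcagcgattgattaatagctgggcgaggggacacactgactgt
The first CArG box, at chr10:67537494-67537503, lay inside the H3K27ac peak of WT cells and outside those of the other genotypes, and the second, at chr10:67537797-67537806, outside all of them. Sequences are from RefSeq (GRCm38.p6, the mm10 assembly). Promoters were found there for Fos, Fosb, Fosl2, Jun, Junb, Jund, Atf3, and Egr2. Among all 32851 promoters of the table, 1.63% held a CArG box, 7.81% TGANTCA, 1.79% TGACGTCA, and 5.55% GCGNGGGCG. Of these genes the CArG box was found at Egr2, and GCGNGGGCG at Fosl2 and Fosb, inside an H3K27ac peak of all 4 lists. No searched motif was found in the bases read for the remaining 5. Only the 250 bases before to 50 after a start were read, so motifs further from the start, also at Fos, were not searched. For Jund the promoter read was that of a RefSeq start further upstream, chr8:70697489-70697788, and the bases around the start used above were not searched.

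Egr1, the best known Egr factor and a direct target of serum response factor, had H3K27ac over 3509 bp in WT, 3206 bp in Ep300Δ/Δ, 3054 bp in Tet2-/-, and 3078 bp in Ep300Δ/ΔTet2-/- cells, a narrow range. The strongest WT promoter peak, inside the gene and 6 bp from a start, had a fold of 23.2 (percentile 92.6). The same region was at percentile 69.3 in Ep300Δ/Δ (8.56-fold), percentile 87.9 in Tet2-/- (17.1-fold), and percentile 43.0 in Ep300Δ/ΔTet2-/- cells (6.26-fold), so its rank was lower in both Ep300-deleted lists than in both others. A broader region 2696 bp upstream of the start stayed between percentiles 81.0 and 90.7 in all 4 lists, and was the strongest acetylated region of the window in both Ep300-deleted lists.

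Related genes, chosen with the results of these data known, were counted by their promoter acetylation. Over all coding genes with a promoter H3K27ac peak in the first list, 7.96% had none in the second from WT to Ep300Δ/Δ, 10.2% from Tet2-/- to Ep300Δ/ΔTet2-/-, and 6.09% from WT to Tet2-/- cells. Of 7 further AP-1 relatives (Fosl1, Batf, Batf2, Batf3, Jdp2, Atf2, and Atf7) 5 had a promoter H3K27ac peak in each of the 4 lists, and Fosl1 and Batf3 had none in any. Of 10 other immediate early genes 9 had one in WT, Ep300Δ/Δ, and Tet2-/- cells and 8 in Ep300Δ/ΔTet2-/- cells. The difference was Egr3, whose weak promoter peak had folds of 4.197, 4.02, and 3.49 (percentiles 16.6, 21.9, and 8.34) in the first 3 and was absent from the last. Of 7 factors upstream of these genes 7, 6, 5, and 6 had one in WT, Ep300Δ/Δ, Tet2-/-, and Ep300Δ/ΔTet2-/- cells. Mapk8, which encodes a kinase of Jun, had a peak in WT cells only (4.45-fold, percentile 20.7), and Elk1, a cofactor of serum response factor, lacked one in Tet2-/- cells and had weak ones elsewhere (folds of 3.55 to 5.19).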

How the data were processed

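Per the labels, Lin- cells (purity over 80%), 5 μg of chromatin, 1 μg of antibody, and 10 ng of Drosophila spike-in chromatin were used. The authors trimmed reads (cutadapt 1.15), aligned them to mm10 (BWA 0.7.13), removed duplicates (Picard), and called peaks against total H3 (MACS2 2.1.1.20160309), per their processing notes and methods. The deposited lists give a fold enrichment ratio and the −log10 q value of each peak, as the authors computed them. The labels call the reads single-end and the methods paired-end. H3 and H3K27me3 libraries (8 of 20 samples) were not analysed here.

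Lists of 2 genotypes were merged as bedtools merge does (version 2.31.1), and a region with no peak (overlap of at least 1 bp) in the other list was lost or gained. Starts came from GENCODE vM21. All 10 genes are named. The rule for neighbors was a peak within 3 kb of their start or nearest to it, and of those that met it, those beside the regions described are named. Of the related genes, those whose promoter H3K27ac peak was lost or gained are given with values. The genes, lists, and motifs were chosen with earlier results of these data known, and the splits by fold percentile and by covered length after the peaks had been seen. Merging and counting recovered 100% of the changes in lists simulated from the WT H3K27ac list. Whole regions were removed or added there, so this checks the counting only, and not split peaks or weak peaks near the calling threshold. Analyses used Python 3.11.15, pandas 2.3.3, scipy 1.17.1, and pysam 0.24.0. One further marker list is not reported here.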

Additional observations from a re-analysis of the deposited data

Results flagged for a closer look

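Among the lengths covered by the 3 marks in the windows and within 3 kb of the starts, 19 moved in opposite directions on Ep300 loss with and without Tet2. The lengths scanned were, for each mark, 1 per gene in the window, 1 per gene around the starts, and 1 total over the windows. They overlap, because the bases around the starts and the totals also count in the windows. No share of all coding genes with such opposite moves was available, so whether 19 is more than elsewhere was not tested. Each of the 19 rests on 1 library per genotype, and these differences were not tested. For H3K27ac, the bases covered at Fosl2 went from 1936 to 2042 with Tet2 and from 3091 to 1212 without it, a difference of -1985 bp between both changes, and around its starts from 1678 to 2042 and from 2630 to 1212, a difference of -1782 bp. At Ier2, they went from 5751 to 5849 and from 5925 to 5258, a difference of -765 bp. At Egr1, they went from 3509 to 3206 and from 3054 to 3078, a difference of 327 bp.

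For H3K4me1, the lengths over the 10 windows went from 90415 to 81207 with Tet2 and from 88832 to 94797 without it, a difference of 15173 bp. Lengths that were shorter after Ep300 loss with Tet2 and longer without it were found at Ier2 (7944 to 6081 and 7029 to 9223, a difference of 4057 bp) and Atf3 (8658 to 7438 and 10359 to 12044, 2905 bp). The same held at Junb (17326 to 16506 and 15323 to 16298, 1795 bp), Jund (7463 to 5808 and 6488 to 6614, 1781 bp), and Egr1 (12622 to 11331 and 11624 to 12035, 1702 bp). Around the starts, the same held at Junb (6054 to 5916 and 4155 to 5825, 1808 bp), Ier2 (2690 to 2452 and 1987 to 3468, 1719 bp), Egr1 (3075 to 2263 and 2709 to 2898, 1001 bp), and Fosb (1360 to 1311 and 473 to 1161, 737 bp). At Egr2 they went from 2355 to 2826 and from 2948 to 2897, a difference of -522 bp. For H3K4me3, they went from 4193 to 4217 and from 4293 to 3985 at Jun (-332 bp, all of it around the start), and from 5896 to 5981 and from 5928 to 5435 at Egr2 (-578 bp). Around the starts of Egr2 they went from 3479 to 3709 and from 3599 to 3340 (-489 bp).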

How the results depend on the processing

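Of 126 alternative values for the 18 shares of regions lost or gained, 115 stayed within the 95% interval of the share as reported, and 11 did not. With only peaks of a −log10 q of at least 5, H3K27ac gains went to 0% in both Ep300 comparisons (0 of 30 regions with Tet2 intact and 0 of 28 with Tet2 absent, against 4.46% and 11.7% of all regions), H3K4me1 losses rose to 32.4% and 29.3% (all regions 51.0% and 44.1%), H3K4me1 gains from Tet2-/- to Ep300Δ/ΔTet2-/- cells fell to 18.3% (all 18.3%), and H3K4me1 gains from WT to Tet2-/- cells rose to 28.7% (all 37.3%). With peaks within 500 bp merged, H3K27ac losses were 11.1% from WT to Ep300Δ/Δ (all 35.7%) and 7.41% from WT to Tet2-/- cells (all 30.1%), and H3K4me3 gains from WT to Ep300Δ/Δ cells were 0% (all 8.69%). With 50 kb on each side, H3K4me1 losses from WT to Ep300Δ/Δ cells were 30.6% (all 36.7%). With only regions nearest to a start of these genes, H3K4me3 gains from WT to Tet2-/- cells were 0% of 20 regions (all 13.6%). The cause of these shifts was not tested. Windows of 10 kb, lists of equal size, and an overlap of at least 50% of the region moved none of the 18 shares out of its interval. No paired analysis was possible because each genotype and mark has 1 library. Depth, purity, and antibody yield of a library cannot be told apart from its genotype.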
